A study of Mus musculus with 17 samples.

Results

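The HoxA cluster of the mouse was followed through the H3K27ac HiChIP loops that touch it in embryoid bodies treated with retinoic acid (RA). A loop here is a pair of DNA segments, its anchors, that were ligated together in crosslinked chromatin carrying H3K27ac, an acetyl mark on histone H3 found at promoters and enhancers in use, and its value is the number of read pairs joining them. Every loop with an anchor overlapping chr6:52105366-52210874 (mm9) was taken, which gave 965 of the 1228543 distinct loops in the files: 846 of 1150030 in bulk libraries and 182 of 116255 in cluster2 libraries. An anchor was assigned to one of 9 genes, Hoxa2, Hoxa3, Hoxa4, Hoxa5, Hoxa6, Hoxa7, Hoxa9, Hoxa10 and Hoxa11, where a start site (TSS) of that gene lay within 5 kb.

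All libraries came from mouse embryonic stem cells that were grown into embryoid bodies by the hanging drop method and then kept in 0.5 µM RA for 4 days. The bulk group comprised 12 libraries of unsorted cells. The cluster2 group comprised 5 libraries, which by the study's methods were cells sorted as positive for both EpCAM and CD38 from the same kind of culture. The methods describe 5 sorting runs but do not say that each library was 1 run. Every group carried RA, and no untreated library was analysed here, so differences are between sorted and unsorted cells and not between treated and untreated ones. The labels do not say that the libraries of either group came from separate cultures, and p-values measure only the spread between these libraries. A loop in bulk libraries can be weaker because fewer cells carry it or because each cell gives fewer read pairs, and these cannot be told apart.

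Hox genes encode homeodomain transcription factors that give cells their position along the body axis. In each cluster the genes lie in the order in which they are used, from anterior to posterior, and RA opens HoxA from its anterior end. RA acts through nuclear receptors of the RAR and RXR families, which bind paired sites called direct repeats. DR5 and DR2 are the repeats that RAR is best known to bind.

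Matches to these repeats are shown because each of the 3 flanking anchors that took most cluster2 read pairs held a DR5 match. Capitals mark the match, and all coordinates are mm9. The first lies in the flanking anchor at the start of Halr1, a long noncoding RNA gene (chr6:52051447-52051507, plus strand), and the next in an anchor with no TSS within 5 kb (chr6:52088757-52088817, plus strand). Neither of these overlapped an annotated gene. The third lies inside the cluster in anchor 4, within Hoxa3 and its antisense gene Hoxaas3 but in no exon (chr6:52125510-52125570, minus strand). The DR2 match lies in anchor 13, within Hoxa10 but in no exon (chr6:52183793-52183850, plus strand).
Halr1 anchor, DR5: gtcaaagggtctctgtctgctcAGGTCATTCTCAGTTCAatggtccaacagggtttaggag
Anchor without a TSS, DR5: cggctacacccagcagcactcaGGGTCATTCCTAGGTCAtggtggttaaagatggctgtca
Anchor 4, DR5: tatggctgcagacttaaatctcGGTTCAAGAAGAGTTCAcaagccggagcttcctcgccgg
Anchor 13, DR2: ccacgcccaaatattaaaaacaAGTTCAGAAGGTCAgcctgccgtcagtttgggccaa

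The anchor at 52101811-52104552, next to the region, held a DR5 match too. Within the cluster, 1 of 17 anchors (5.88%) held a DR5 match, beside 1.28% of all 216081 anchors and 1.34% of the 199282 anchors of like width. The share for DR2 was 1 of 17 (5.88%), beside 2.82% of all anchors. The CTCF core motif was matched in 0 of 17, beside 3.61% of all anchors, which says only that these letters were not in the windows. TGATNNAT, a motif of PBX and HOX pairs searched on both strands, was present in 13 of 17 anchors (76.5%) and in 69.1% of all anchors. These matches describe the sequence and show no binding.

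The RefSeq promoter table (build GRCm38.p6) held 8 of the 9 genes, all but Hoxa4, and its 250 bases before each TSS were placed in mm9 by exact match. Those of Hoxa5 (chr6:52154587-52154836, minus strand) and of the Hoxa10 start nearer Hoxa9 (chr6:52184939-52185188, minus strand) are shown because they lie in the anterior anchor 7 and the posterior anchor 13, whose loop ends are compared between the groups. Capitals mark TATAAA and CCAAT on either strand.
Hoxa5 promoter: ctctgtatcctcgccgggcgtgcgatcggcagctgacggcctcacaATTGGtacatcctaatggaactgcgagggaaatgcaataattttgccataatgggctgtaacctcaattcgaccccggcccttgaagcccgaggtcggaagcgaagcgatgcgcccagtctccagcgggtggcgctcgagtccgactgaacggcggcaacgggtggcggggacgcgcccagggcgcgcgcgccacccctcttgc
Hoxa10 promoter: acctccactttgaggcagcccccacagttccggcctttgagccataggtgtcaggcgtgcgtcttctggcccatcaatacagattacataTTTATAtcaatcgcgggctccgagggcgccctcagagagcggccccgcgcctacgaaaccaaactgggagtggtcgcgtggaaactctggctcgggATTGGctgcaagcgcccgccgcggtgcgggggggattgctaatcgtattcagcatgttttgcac

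The Hoxa10 promoter held 1 TATAAA and 1 CCAAT match and the Hoxa5 promoter 1 CCAAT match only. Of all 32851 promoters in the table, 12.4% held TATAAA and 33.8% CCAAT.

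Loops of a library held between 65178 and 241202 read pairs in bulk and between 50508 and 118179 in cluster2, and single HoxA loops were thin: in bulk 66.5 to 90.2% of them rested on 1 read pair, in cluster2 47.8 to 73.1%. The 2 groups used different anchors. After overlapping anchors were joined across libraries, 15074 of 216081 were used by both groups and 200999 by bulk only. At HoxA the joined table held 17 anchors, 13 of them used by cluster2, and 839 loops, of which 81 lay inside the cluster and 758 led out of it. Markers of the cells moved with the group: the summed counts per 1000000 read pairs in a library's loops (CPM) at 11 endoderm genes ranged from 313 to 596 in bulk and from 3960 to 5185 in cluster2, and those at 9 neural genes from 670 to 1543 and from 525 to 570, and their part in the results was not tested. With TMM 6 of the 11 endoderm genes were higher and 1 lower, and 8 of the 9 neural genes were lower, beside 20% higher and 40.9% lower of all genes. Col4a1 and Col4a2, both among the higher endoderm genes, had the same count in each cluster2 library (49, 59, 37, 36 and 75), so they were not independent. Of 3 pluripotency genes 2 were higher and 1 lower, and of 2 mesoderm genes 1 was lower. The lower ones, Esrrb and Mesp1, had 0 cluster2 read pairs because cluster2 used no anchor of theirs, so no limit can be put on them. Epcam and Cd38, the sorting markers, summed to 0 to 69.8 CPM in bulk and to 93.1 to 262 in cluster2. Both were higher with library size alone and neither passed the test with TMM, while on shared anchors Cd38 was higher (log2 fold change 1.78, edgeR adjusted p = 0.00774) and Epcam did not pass (0.27).

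The cluster as a whole made up a larger share of cluster2 read pairs than of most bulk libraries. Cluster2 replicates 1 to 5 held 254, 199, 135, 94 and 256 HoxA read pairs, and the bulk libraries between 55 and 482 with a median of 132. In CPM this was 2149, 2315, 2645, 1861 and 2472 in cluster2 (2288 ± 302, SD, n = 5), and 585 at the lowest, 1213 at the median and 2767 at the highest in bulk (1428 ± 688, SD, n = 12). The groups overlapped, because bulk replicates 1, 2 and 8 reached the cluster2 range.

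The direction of the difference depended on the scaling. With TMM normalization, which scales libraries on a trimmed mean of the genes' log ratios, the HoxA cluster was lower in cluster2 (log2 fold change -1.19, SE 0.24, edgeR adjusted p = 7.04e-05), and with library size alone it was higher (0.67, adjusted p = 0.0143). On loops whose anchors both groups used it was lower with either scaling (-1.73 with TMM and -1.64 with library size). The median of all 13655 genes itself lay at -0.44 with TMM and at 1.38 with library size, so that HoxA lay 0.76 and 0.71 below the median gene in turn. On shared anchors the median of 9712 genes was 0.34, and HoxA lay 2.07 below it.

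Against the other Hox clusters HoxA stood out in cluster2. The log2 ratio of HoxA to HoxB read pairs was 1.40 ± 0.13 in cluster2 and -1.11 ± 0.49 in bulk (difference 2.51), and that of HoxA to HoxD was 2.89 ± 0.18 and 0.62 ± 0.57 (difference 2.27). In neither did the groups overlap, and both gave the smallest p that an exact two-sided permutation test over the 6188 splits into 5 and 12 allows (p = 0.000162, adjusted over 7 measures 0.000377). The HoxA to HoxC ratio was 0.92 ± 0.22 and -0.10 ± 0.38 (exact permutation p = 0.000323, adjusted 0.000566), with overlap, and with each loop counted once its difference turned to -0.18 (exact permutation p = 0.294). These ratios need no normalization, but they depend on which anchors the files list. Of the joined anchors, cluster2 used 13 of 17 at HoxA, 13 of 29 at HoxB, 10 of 18 at HoxC and 10 of 15 at HoxD. On shared anchors the difference was 2.33 for HoxB and 1.77 for HoxD, and that for HoxC stayed positive. Joining had dropped 242 bulk read pairs at HoxA. With these added back at HoxA, and the other clusters left as joined, the difference was 2.37 for HoxB, 0.88 for HoxC and 2.13 for HoxD. In CPM, HoxB was 2900 ± 926 in bulk and 869 ± 142 in cluster2. HoxD was 879 ± 291 and 310 ± 60.9, and HoxC 1473 ± 572 and 1205 ± 139. The bulk levels include read pairs on anchors that cluster2 did not use. Bulk replicate 8 stood apart from its group, with the highest HoxA level and a HoxA to HoxB log2 ratio of 0.20.

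**Figure D1:**
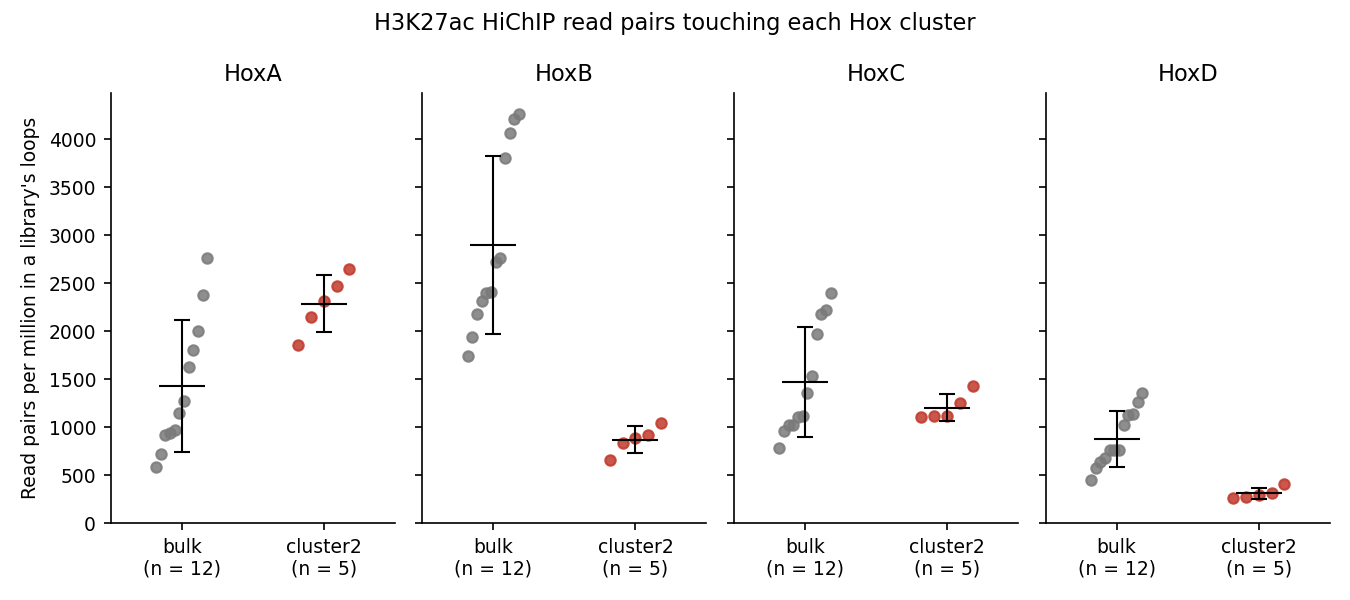
Read pairs at each Hox cluster in CPM; each point is 1 library, the long bar the mean and the whiskers the SD (bulk n = 12, cluster2 n = 5). HoxA is the only one of the 4 clusters whose cluster2 mean (2288) lies above its bulk mean (1428).

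The estimates for the 9 genes varied along the cluster, and differences between genes were not tested. With TMM, 7 of 9 were lower in cluster2 and 0 higher, beside 40.9% lower and 20% higher of all 13655 genes tested. No gene was higher at an unadjusted p under 0.05 either, and DESeq2 gave the same counts (38.6% lower and 21.6% higher of all genes). The genes are not independent, since 9 of the 14 anchors assigned to them served more than 1 gene, and the levels that follow are in CPM.

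At the anterior end, Hoxa2, which patterns the hindbrain and the second pharyngeal arch, had 262, 302, 490, 396 and 377 in cluster2 and 65.6, 237 and 509 at the lowest, median and highest in bulk (log2 fold change -1.44, SE 0.31, edgeR adjusted p = 0.000109). Hoxa3, needed for the thymus and parathyroid glands, had 448, 372, 509, 297 and 550 in cluster2 and 145, 304 and 871 in bulk (-1.76, SE 0.30). Its value sums 6 anchors, of which cluster2 used 4, and anchors 8, 9 and 10 are shared with Hoxa5, Hoxa6 or Hoxa7. It is therefore not a level of the anterior end alone. At Hoxa2 and Hoxa3 every cluster2 library lay inside the bulk range. Hoxa4, a gene of the neck vertebrae, had 948, 1163, 1058, 594 and 937 in cluster2 and 289, 604 and 1239 in bulk (-1.30, SE 0.25).

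Hoxa5, which acts in the lung and at the border of neck and thorax, had 525, 547, 647, 455 and 570 in cluster2 and 158, 322 and 596 in bulk (-1.25, SE 0.24), and its replicate 3 exceeded all bulk libraries. Hoxa6, a gene of the thorax, shares anchors 7 and 8 with Hoxa5 and had 525, 582, 666, 475 and 608 in cluster2 and 158, 328 and 630 in bulk (-1.26, SE 0.24). Hoxa7, also a gene of the thorax, had 161, 256, 118, 198 and 174 in cluster2 and 72.3, 143 and 536 in bulk (-1.90, SE 0.34), the largest fall of the 9 with TMM. All 5 cluster2 libraries lay within the bulk range at Hoxa7.

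The estimates of the posterior genes were smaller. Hoxa9, known for its role in blood progenitors, had 161, 256, 216, 238 and 183 in cluster2 and 39.4, 92.6 and 328 in bulk (-1.09, SE 0.33, edgeR adjusted p = 0.00469), a call that was lost with a TSS window of 2.5 kb (-0.64, adjusted p = 0.147). Hoxa10, a gene of the lumbar spine and uterus, had 161, 256, 235, 178 and 232 in cluster2 and 26.2, 50 and 208 in bulk (-0.17, SE 0.34, edgeR adjusted p = 0.682). Hoxa11, which patterns the forearm and kidney, had 84.6, 128, 137, 39.6 and 96.6 in cluster2 and 0, 27.4 and 154 in bulk (-0.41, SE 0.46, edgeR adjusted p = 0.455). For Hoxa10, 3 cluster2 libraries exceeded every bulk library, and no gene of the 9 was separated between groups, beside 38.2% of all genes separated and higher and 7.24% separated and lower in cluster2.

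Each scaling left Hoxa7 lowest and Hoxa10 highest of the 9. With library size alone 6 were higher and 0 lower, beside 58.2% higher and 24.2% lower of all genes, and the estimates ran from -0.04 for Hoxa7 to 1.70 for Hoxa10. On shared anchors 8 were lower and 0 higher, beside 11.1% lower and 21.7% higher, with Hoxa7 lowest (-2.47) and Hoxa10 highest (-0.74, edgeR adjusted p = 0.0377). Hoxa11 was then at -0.88 (adjusted p = 0.0671). Relative to the median of all genes, Hoxa2, Hoxa3, Hoxa4, Hoxa5, Hoxa6, Hoxa7 and Hoxa9 lay below it under each of these scalings. Hoxa10 lay 0.26 above the median gene with TMM and 0.32 above it with library size, but 1.09 below it on shared anchors.

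**Figure D2:**
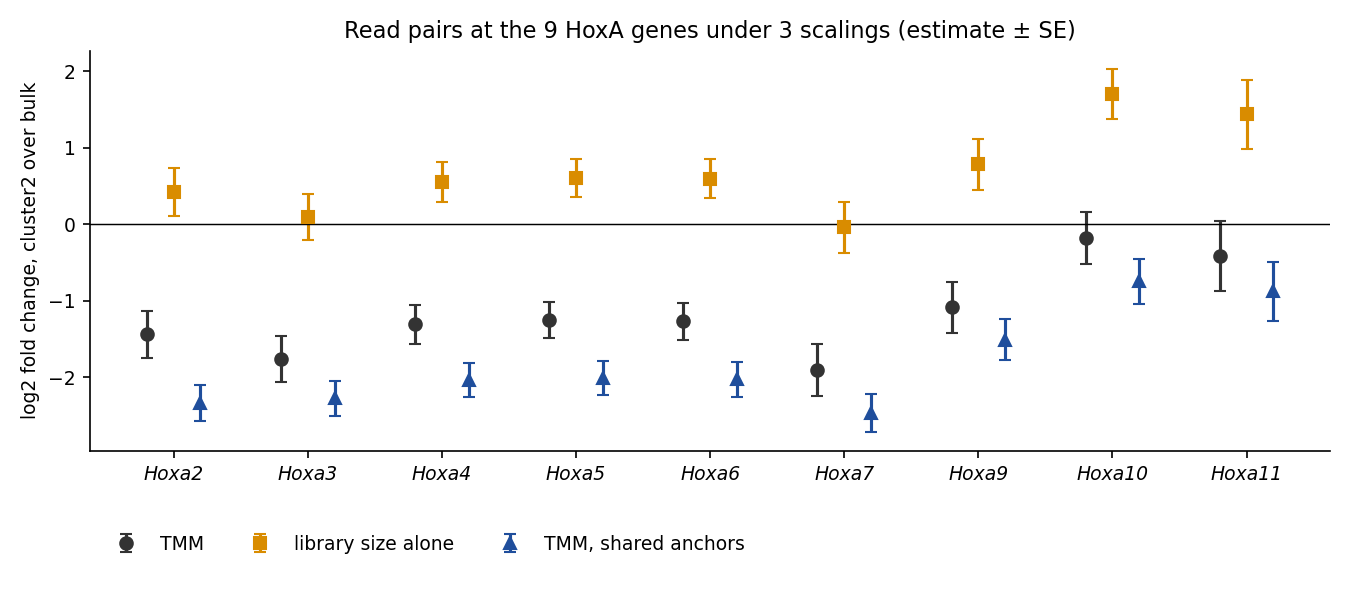
Log2 fold change of read pairs, cluster2 over bulk, for the 9 genes in cluster order, as estimate ± SE under TMM, library size alone and TMM on loops between shared anchors. Under each scaling Hoxa7 is the lowest and Hoxa10 the highest point, and with library size alone all genes but Hoxa7 lie above 0, where the other scalings put all 9 below it.

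Inside the region the read pairs concentrated on anchors of the anterior side in both groups. Numbering the 17 anchors from the Hoxa2 end, anchor 6 (52138890-52148971, Hoxa4) took 33.5 ± 2.88% of the loop ends in bulk and 28.4 ± 4.59% in cluster2, and anchor 7 (52152715-52155376, Hoxa5 and Hoxa6) 17.4 ± 2.28% and 16.7 ± 0.34%. Anchor 6 was also the widest, at 10081 bases, and per kb of anchor it had a lower CPM than anchor 7, 63.2 ± 30.4 against 121 ± 52.9 in bulk and 93.2 ± 21.3 against 206 ± 26.1 in cluster2. The share of ends nearest Hoxa2 to Hoxa5 was 85.4 ± 3.50% in bulk and 86.4 ± 2.64% in cluster2, a difference of 1.06 percentage points (exact permutation p = 0.557). With each loop counted once in place of its read pairs, the share was lower in cluster2, by -6.81 percentage points (exact permutation p = 0.0158). Each anchor was counted by its nearest start among the 9 genes, however far. The share thus includes anchor 1, with 18.7% of the ends in cluster2 and 6.12% in bulk, though no such start lies within 5 kb of it. It also includes anchor 9, which lies next to a Hoxa3 start beyond Hoxa6. A share without anchor 1 was not tested.

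The first anchor was separated between the groups. Anchor 1 (52107260-52109921), which holds the TSS of the noncoding RNA gene Hotairm1 at 52108431 and no TSS of the 9 genes within 5 kb, had 71, 45, 38, 28 and 66 read pairs in cluster2 and 1, 12 and 55 at the lowest, median and highest in bulk. It took 18.7 ± 1.93% of the loop ends in cluster2, from 15.5 to 20.6%, and 6.12 ± 2.23% in bulk, from 0.870 to 9.68%. The groups did not overlap, nor did they when only shared anchors were used (6.61 ± 2.60% in bulk, at most 10.7%). Its CPM per kb was 230 ± 32.3 in cluster2 and 46.8 ± 27.8 in bulk.

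Anchor 13 (52178854-52185360), with the Hoxa9 side of Hoxa10, took 4.16 ± 1.01% of the ends in cluster2 and 1.71 ± 0.95% in bulk without overlap, though on shared anchors the groups overlapped, with bulk libraries reaching 5.13%. Anchors 1 and 13 were the only ones of the 17 that did not overlap between groups in CPM, both higher in cluster2, beside 14.6% of all anchors separated and higher and 17.2% separated and lower. Anchor 4 in the Hoxa3 gene took the smaller share in cluster2, 2.70 ± 1.43% against 5.65 ± 1.80%. Anchors 5, 8, 12 and 16 had no cluster2 read pair, but they are not among the anchors of the cluster2 files, so no limit can be put on them.

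With TMM, 10 of the 16 anchors tested were lower in cluster2 and 0 higher, beside 75.5% lower and 10.5% higher of all 43452 anchors. No anchor was higher at an unadjusted p under 0.05, and DESeq2 called 1 higher and 8 lower (12.4% and 73.7% of all anchors). Anchors 5, 8 and 12, which the cluster2 files do not list, are among the lower ones in both fits. Of the 13 that they list, 7 were lower with TMM and 0 higher (26.4% and 31.5% of all such anchors), and DESeq2 called 1 higher and 5 lower. On shared anchors 8 of 13 were lower and 0 higher, beside 15.2% lower and 32.5% higher. With library size alone 7 were higher and 3 lower (22.7% and 69.4% of all anchors), and of the 13 listed anchors 7 were higher and 0 lower (68.3% and 8.10%).

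**Figure D3:**
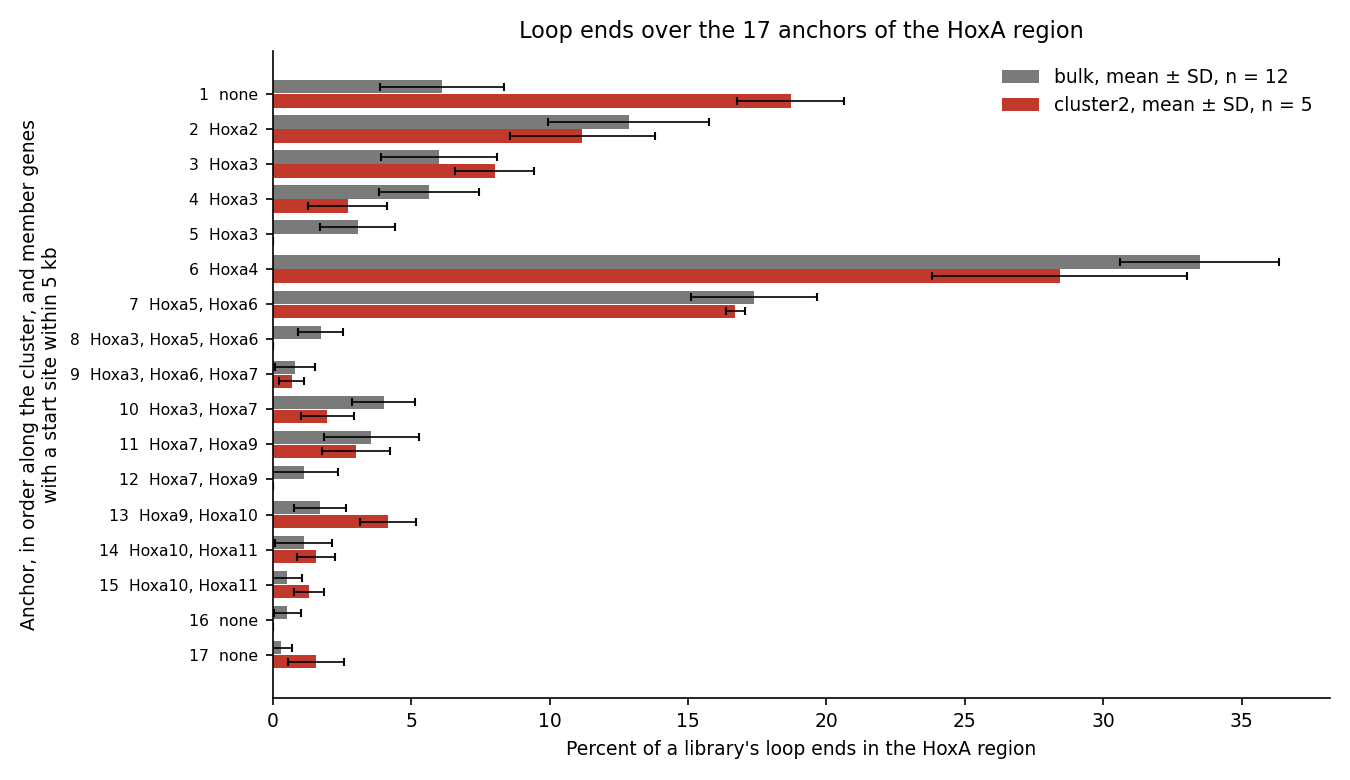
Share of a library's loop ends in the HoxA region that fell on each of the 17 anchors, in order along the cluster from the Hoxa2 end; bars are means and whiskers SDs over 12 bulk and 5 cluster2 libraries. Anchor 1 holds 18.7% of the ends in cluster2 and 6.12% in bulk, while anchor 6 leads in both groups (28.4% in cluster2 and 33.5% in bulk).

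In the bulk files anchor 6 is listed as 2 neighbouring anchors, and the loop between them, with 7, 12.5 and 53 read pairs at the lowest, median and highest and 242 in all, was the strongest bulk loop at HoxA. In the cluster2 files they are 1 anchor, so this loop cannot appear there and was left out of the comparison. Of the remaining loops, the one with most read pairs in both groups joined Hoxa4 to Hoxa5 and Hoxa6 (anchors 6 and 7, 10.1 kb apart). It had 30, 18, 10, 4 and 22 read pairs in cluster2 and 5, 11.5 and 43 at the lowest, median and highest in bulk, which was 19.0 ± 6.48% and 25.2 ± 6.88% of the read pairs inside the cluster. Its log2 fold change was -1.60 with TMM (SE 0.31, edgeR adjusted p = 2.14e-06) and 0.74 with library size alone (adjusted p = 0.0164). The loop from Hoxa2 to Hoxa4 (anchors 2 and 6, 29.3 kb) had 7, 5, 10, 4 and 8 read pairs in cluster2 and 0, 4.5 and 28 in bulk, or 9.18% and 8.15% of the inside read pairs. It was lower with TMM (-1.65, SE 0.37), and did not pass with library size alone (0.67, edgeR adjusted p = 0.0905).

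The 3 loops into anchor 6 from the Hoxa3 gene had unlike values. That from anchor 4 (17.3 kb) had 4, 0, 1, 0 and 1 read pairs in cluster2 and 1, 3 and 11 in bulk, with the log2 fold change at -3.32 with TMM (SE 0.52, edgeR adjusted p = 3.33e-09) and at -1.15 with library size alone (adjusted p = 0.0592). That from anchor 3 (21.0 kb) had 30 read pairs in cluster2 and 34 in bulk, and its share of the inside read pairs was 8.20% in cluster2 against 3.62% in bulk. It did not pass with TMM (-0.52, edgeR adjusted p = 0.279) and was higher with library size alone (1.78). That from anchor 5 had 42 read pairs in bulk and none in cluster2, whose files do not list anchor 5. The loop from Hoxa2 to Hoxa5 and Hoxa6 (anchors 2 and 7, 39.4 kb) was lower with TMM, with 7 read pairs in cluster2 and 37 in bulk (-2.56, SE 0.54), and did not pass with library size alone (-0.36, edgeR adjusted p = 0.562).

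Loops of anchor 1 went the other way in share. Anchors 1 and 6 (35.3 kb) were joined by 17, 11, 6, 6 and 13 read pairs in cluster2 and by 0, 2 and 10 in bulk, or 12.9% and 4.34% of the inside read pairs. Anchors 1 and 2 (6.02 kb) were joined by 8, 5, 6, 5 and 9 read pairs in cluster2 and by 0, 1.5 and 9 in bulk, or 8.70% and 2.47%. In CPM the groups did not overlap in either loop, but neither passed the edgeR test with TMM (log2 fold change 0.07 and 0.10, adjusted p = 0.879 and 0.850).

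Of the 33 HoxA loops deep enough to test, 17 were lower in cluster2 with TMM and 0 higher, beside 22.4% lower and 38.1% higher of all 5369 loops. Of the 15 inside the cluster 11 were lower, and of the 18 leading out 6. In 2 of the 33, 1 inside and 1 leading out, an anchor is not listed by the cluster2 files. Of the 31 others 15 were lower and 0 higher (13% and 42.7% of all such loops), 10 of 14 inside and 5 of 17 leading out. No HoxA loop was higher at an unadjusted p under 0.05, and DESeq2 called 0 higher and 13 lower (30.6% and 20.6% of all loops), or 11 lower of the 31. With library size alone 18 were higher and 4 lower (76.9% and 13.8% of all loops), or 18 and 2 of the 31 (86.2% and 3.34%). On shared anchors 12 of 31 were lower and 0 higher (11.5% and 52.1%). In CPM, 5 of the 33 did not overlap between groups, all higher in cluster2, beside 49.9% of all loops separated and higher and 1.47% separated and lower.

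**Figure D4:**
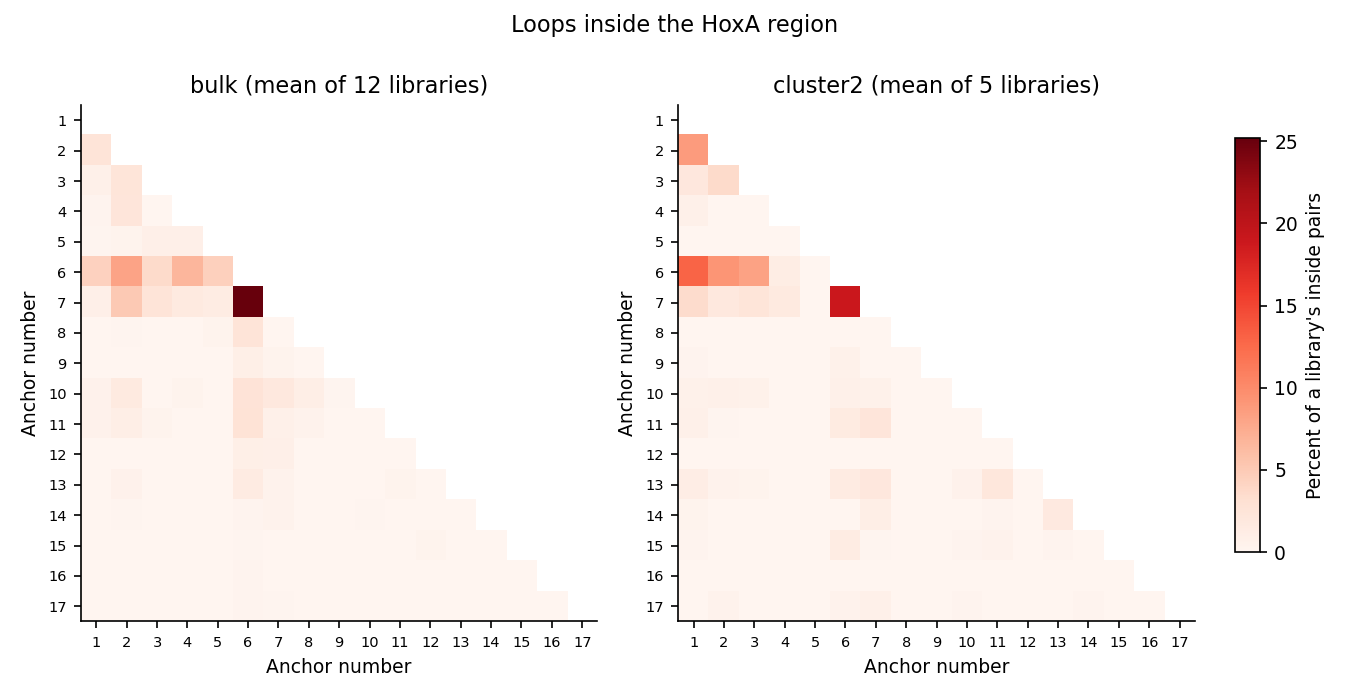
Mean share of a library's inside read pairs for each pair of the 17 anchors, in bulk (12 libraries) and cluster2 (5 libraries); darker cells hold a larger share. The cell of anchors 6 and 7 is the darkest in both (25.2% and 19.0%), and the cells joining anchor 1 to anchors 2 and 6 are darker in cluster2.

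With joined anchors, a larger part of the cluster2 read pairs stayed within the cluster, a difference that depended on which anchors were counted. Both anchors lay in the region for 43.6 ± 2.43% of HoxA read pairs in cluster2 and for 33.6 ± 5.64% in bulk (exact permutation p = 0.00275, adjusted over 7 measures 0.00321). Joining had dropped 242 bulk read pairs within anchor 6 and 0 in cluster2. With anchors as deposited, these counted as inside pairs, and the difference was 3.84 percentage points (exact permutation p = 0.123). On shared anchors the direction turned, with a difference of -5.27 percentage points (exact permutation p = 0.199), which leaves out 214 outer anchors that bulk alone used. These held 822 of its 1584 read pairs to flanking DNA (51.9%).

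Loops out of the cluster were shorter in cluster2. Their median span was 64.3 ± 7.21 kb in cluster2, from 53.4 to 72.5 kb, and 223.5 ± 31.8 kb in bulk, from 190.9 to 283 kb (exact permutation p = 0.000162, adjusted 0.000377). On shared anchors the difference was -91.6 kb (exact permutation p = 0.00339). Within 20 kb of the region on the side of Skap2, the neighbour at the Hoxa2 end, lay 49.3 ± 7.34% of the cluster2 and 14.6 ± 6.01% of the bulk read pairs to flanking DNA, without overlap, but on shared anchors the bulk share was 28.3 ± 14.2%, up to 60%, and the groups overlapped. Between 120 and 250 kb the shares were 10.7 ± 3.72% and 28.2 ± 8.18%.

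Nearly all flanking read pairs led to the Skap2 side, 94.7 ± 1.38% in cluster2 and 83.7 ± 5.68% in bulk (exact permutation p = 0.000646, adjusted 0.000905). The ranges were 93.0 to 96.3% and 71.5 to 92.9%, with bulk replicate 8 lowest. On shared anchors the difference was gone (-0.09 percentage points, exact permutation p = 0.964). On the other side, towards Evx1, cluster2 had 29 read pairs and bulk 250.

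The flanking anchors that led in cluster2 were 3, all within 60 kb. The anchor at 52101811-52104552, under 5 kb from the Hotairm1 TSS, was joined to the cluster by 46, 39, 18, 20 and 45 read pairs in cluster2 and by 2, 12 and 38 at the lowest, median and highest in bulk. It took 32.0 ± 5.73% of flanking read pairs in cluster2 and 10.4 ± 5.29% in bulk, from 24.0 to 38.5% and from 3.03 to 22.9%, so that the groups did not overlap. On shared anchors they did, with the bulk share at 22 ± 13.4% and up to 55%. The anchor at 52087764-52093393, without a TSS within 5 kb, took 17.4 ± 4.77% in cluster2 and 2.76 ± 1.89% in bulk, and the groups stayed apart on shared anchors, where bulk reached 14.1%.

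The Halr1 anchor (52050293-52058033) had 22, 13, 22, 4 and 34 read pairs in cluster2 and 1, 5.5 and 17 in bulk, or 17.3 ± 8.51% and 5.12 ± 3.43%, with overlap between the groups. Its loop to Hoxa4 (89.8 kb) had 8, 3, 8, 3 and 13 read pairs in cluster2 and 0, 2 and 4 in bulk, separated in CPM. This loop did not pass with TMM (log2 fold change 0.48, edgeR adjusted p = 0.358) and was higher with library size alone (2.77). These 3 anchors are those with a DR5 match outside the cluster, of 31 outer anchors in cluster2. Together they took 66.6 ± 4.84% of flanking read pairs in cluster2, from 61.5 to 73.4%. All cluster2 read pairs within 60 kb of the region on the Skap2 side fell on them, 264 within 20 kb and 95 beyond. Their share is thus also that of the nearest anchors on that side, and any part of the motif in it was not tested. In bulk, 7 of 249 outer anchors held a DR5 match and took 19.3 ± 4.55%, from 13.8 to 29.2%, and on shared anchors the bulk share was 39.0 ± 12.7% and overlapped with cluster2, up to 65.0%.

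The loops of these anchors with most cluster2 read pairs led to anchors 1 and 6. From 52101811-52104552 the loop to anchor 6 (40.7 kb) had 14, 21, 0, 4 and 12 read pairs in cluster2 and 0, 3.5 and 12 in bulk, and that to anchor 1 (5.41 kb) 13, 10, 6, 7 and 13 against 0, 1.5 and 9. From 52087764-52093393 the loop to anchor 6 (53.4 kb) had 10, 8, 5, 0 and 5 against 0, 1 and 3, and that to anchor 1 (18 kb) 11, 3, 2, 3 and 4 against 0, 0 and 3. In CPM the groups did not overlap in the 2 loops to anchor 1 and overlapped in the 2 to anchor 6. With TMM none of the 4 passed the edgeR test, with log2 fold changes of -0.37, 0.44, 0.78 and 0.75 in turn (adjusted p = 0.381, 0.341, 0.184 and 0.241), and with library size alone all were higher (1.94, 2.75, 3.02 and 2.98).

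Anchors at Skap2, a gene of a signalling adaptor in blood cells, overlapped between the groups, 8.38 ± 2.81% in cluster2 and 8.42 ± 5.24% in bulk, with 10, 8, 10, 4 and 10 read pairs in cluster2 and 0, 9 and 34 at the lowest, median and highest in bulk. This pools 2 anchors whose mean shares differed in opposite directions, each with overlap between the groups. The one holding the Skap2 TSS (51961465-51965356) took 5.11 ± 1.14% in cluster2 and 1.22 ± 1.46% in bulk, with 26 and 20 read pairs. The other (51955516-51957829) took 3.27 ± 2.04% and 7.20 ± 4.63%, with 16 and 134. The loop from the Skap2 anchor at 51955516-51957829 to Hoxa4 (187 kb) was lower in cluster2 with TMM, with 4 read pairs against 39 (log2 fold change -3.29, SE 0.58, edgeR adjusted p = 1.38e-07), but not with library size alone (-1.19, adjusted p = 0.0878). The loop to Hoxa4 from 51924698-51927000 (218 kb), downstream of the Skap2 TSS, had 4 and 31 (-2.99, SE 0.61). With library size alone it was at -0.89 (edgeR adjusted p = 0.215). The 1 anchor of Cbx3 and Hnrnpa2b1, neighbours that share a promoter region, had 18 read pairs to the cluster in cluster2 and 30 in bulk. Hibadh with 13 read pairs and Gm15052 with 9 were joined in bulk only.

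**Figure D5:**
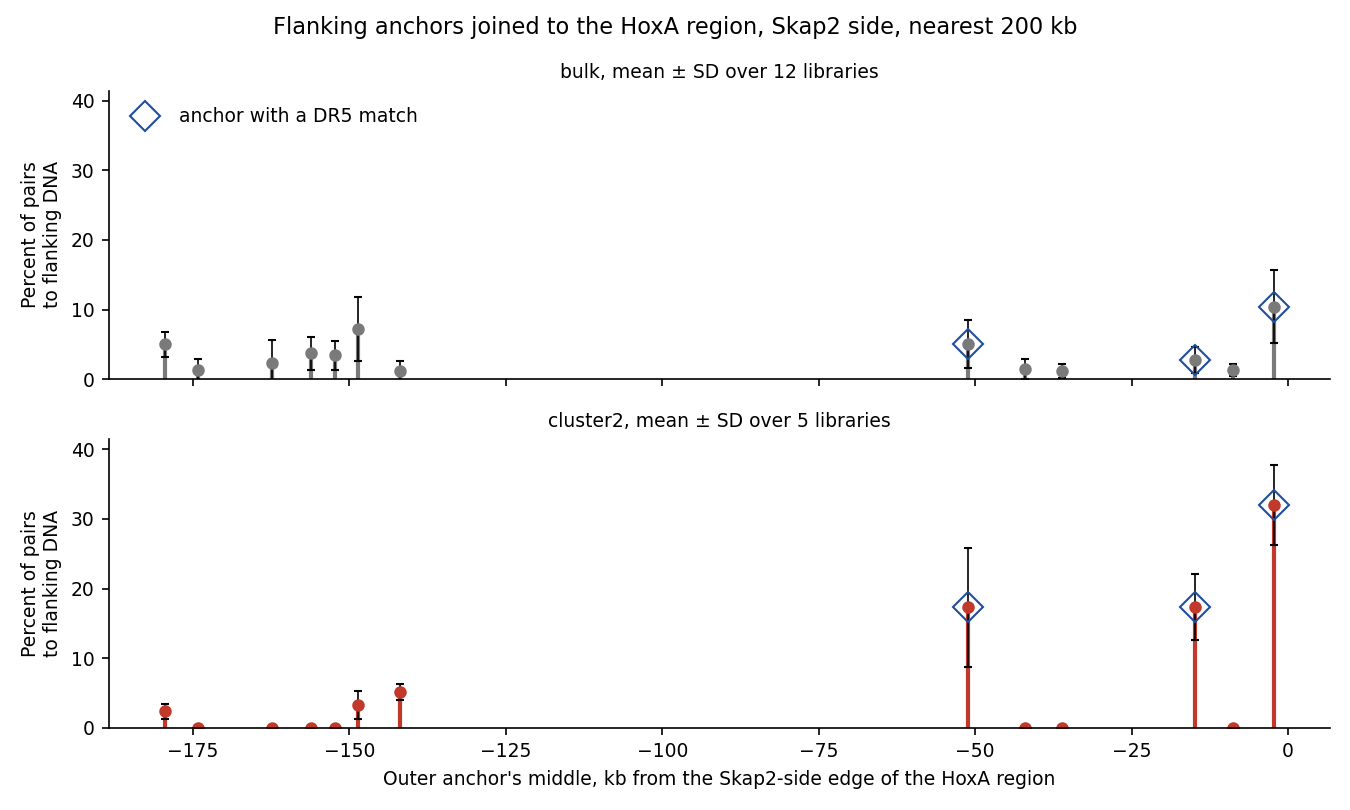
Mean share of read pairs to flanking DNA at each outer anchor on the Skap2 side within 200 kb, against the distance of its middle from the region edge (bulk above, 12 libraries; cluster2 below, 5 libraries; whiskers SD; diamonds mark a DR5 match). In cluster2 the 3 marked anchors hold 32.0, 17.4 and 17.3%, and in bulk 10.4, 2.76 and 5.12%.

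Genes of RA signalling and the Hox cofactors outside the cluster were described by the same table. Of a list of 27, 24 were tested, and with TMM 4 were higher and 13 lower in cluster2 (20% and 40.9% of all genes), with a median log2 fold change of -1.08 beside -0.44 for all genes. For 3 of the 24 the cluster2 files list no anchor. Of the other 21, 4 were higher and 10 lower (25% and 26% of all such genes), with a median of -0.87. With library size alone 10 of the 24 were higher and 6 lower (58.2% and 24.2% of all genes), or 10 and 3 of the 21 (72.9% and 4.98%), and on shared anchors 5 of 16 were higher and 5 lower (21.7% and 11.1%).

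Stra6, the cell's receptor for retinol uptake, rose, with 210, 162, 86, 88 and 211 read pairs in cluster2 and 5, 15 and 32 at the lowest, median and highest in bulk (log2 fold change 2.07, SE 0.17, edgeR adjusted p = 1.60e-12). Meis2, a partner of HOX proteins on DNA, fell, with 35 read pairs over the cluster2 libraries and 328 over bulk (-3.04, SE 0.31). Rarb and Rxrg, RA receptor genes, had 346 and 145 read pairs in bulk, and the cluster2 files list no anchor for them, so no limit can be put on them there. The other receptor genes, named here after their values were seen, had unlike values. Rxrb rose, with 646 read pairs in cluster2 and 242 in bulk (log2 fold change 1.57, SE 0.20, edgeR adjusted p = 1.73e-08), also on shared anchors (0.75). Rarg, with 65 and 34, was higher with TMM (1.06, SE 0.38, edgeR adjusted p = 0.0155) but not on shared anchors (0.93, adjusted p = 0.0807). Rxra, with 6 and 33, was lower with TMM (-2.22, SE 0.66) but not with library size alone (-0.49, edgeR adjusted p = 0.519). Rara had 657 and 722 (0.06, edgeR adjusted p = 0.812), with library size alone at 1.94.

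Among the 12 bulk libraries, a few genes far from the cluster rose and fell with HoxA. Over 252 genes more than 2 Mb away with at least 200 CPM, Pearson's r of log2(CPM + 1) with the HoxA sum had a median of 0.32. It was 0.85 for Kdm6b, whose product removes the repressive mark H3K27me3, 0.84 for Hoxc6, 0.83 for Ager, 0.81 for Hoxc5 and 0.81 for Hoxc4. Without bulk replicate 8 these were 0.81, 0.91, 0.87, 0.91 and 0.91. The HoxC genes share anchors with each other, and all values of a library share its depth.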

How the data were processed

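H3K27ac HiChIP was read from 17 loop tables, 12 bulk and 5 cluster2. Reads were mapped by the authors to mm9 (HiC-Pro), and hichipper was used for the peaks and loops. The deposited values are counts, the read pairs joining 2 anchors, not normalized. A count of 1 is kept, and only loops between each group's own anchors are listed. PCR duplicates cannot be told from molecules, so intervals and spreads cover these libraries only.

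Overlapping anchors were joined over all libraries. This dropped 700 read pairs whose anchors fell into 1 joined anchor, 242 of them at HoxA in bulk, all within anchor 6. Counts were summed per joined anchor, per gene (TSS within 5 kb) and per Hox cluster. Features seen in 5 or more libraries, with 20 or more read pairs in all, went into the test of edgeR 4.0.16 under R 4.3.3 (TMM, quasi-likelihood test, Benjamini-Hochberg over the whole table, adjusted p under 0.05). DESeq2 1.42.0 (poscounts), library size alone and loops between anchors of both groups (shared anchors) were alternatives. On simulated libraries with 200 features changed 4-fold, the test recovered 65% of genes, 38% of anchors and 41% of loops, and 6.47%, 1.30% and 3.53% of calls were false. For rises and falls apart, recovery was 85% and 45% of genes, 58% and 18% of anchors, and 66% and 16% of loops. Shares and ratios were compared by exact two-sided permutation over all splits, with Python 3.11.15, numpy 2.4.6, pandas 2.3.3 and scipy 1.17.1. Sequences were read with pysam 0.24.0.

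The genes and gene lists were chosen with earlier results of these data known. Named were all 9 genes, the 10 loops with most read pairs in each group, the flanking genes with most read pairs (8 in bulk, 5 in cluster2), up to 6 called list genes by p and the 5 genes most like HoxA over bulk. Some further genes that this rule names are not reported here.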

Additional observations from a re-analysis of the deposited data

Results flagged for a closer look

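Within the 5 cluster2 libraries, 44 sets of values were examined, namely shares, CPM, log2 ratios and the flanking span. A library was sought whose gap to its nearest neighbour is large against the whole range, and 2 were found. Chance alone sets about 1 in 20 such sets apart, and the sets share read pairs, so they are not independent. The flanking anchor at 52087764-52093393 took 25.9% of flanking read pairs in cluster2 replicate 1, the highest of the 5. On the Skap2 side, the window from 120 to 250 kb took 17.3% in cluster2 replicate 3, the highest of the 5.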

How the results depend on the processing

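Over 33 results and 34 settings, 877 comparisons were made. With library size alone the log2 fold change was 0.67 for the HoxA cluster, 0.42 for Hoxa2, 0.10 for Hoxa3, 0.56 for Hoxa4, 0.61 for Hoxa5, 0.60 for Hoxa6, 0.79 for Hoxa9, 1.70 for Hoxa10 and 1.44 for Hoxa11, and 0.67 and 0.74 for the loops of Hoxa4 with Hoxa2 and with Hoxa5 and Hoxa6. It gave 6 genes higher and 0 lower, 7 anchors higher and 3 lower, and 18 loops higher and 4 lower. The 3 anchors and 2 of the 4 loops lower there involve anchors that the cluster2 files do not list. Hoxa10 turned to 0.27 with the replicate block, 0.28 in replicates 1 to 5 without the block and 0.050 in thinned libraries, and Hoxa11 to 0.045, 0.048 and 0.11, and to 0.10 with a TSS window of 2.5 kb. Without 1 library Hoxa10 ranged from -0.26 to 0.21 and Hoxa11 from -0.54 to 0.19, the highest without bulk replicate 8. The causes were not tested.

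DESeq2 and thinning each called 1 anchor higher. Higher and lower loops were 6 and 47 with at least 5 read pairs, 1 and 9 at spans of at least 20 kb, and 2 and 3 after thinning, and lower loops were 5 with at least 50 read pairs, where fewer loops are tested. The inside share differed by 8.34 percentage points after thinning (exact permutation p = 0.0734), 3.84 with anchors as deposited and -5.27 on shared anchors, and the Skap2-side share by -0.086 on shared anchors. The anterior share turned to -2.18 on shared anchors, -6.81 with each loop counted once, -0.85 with anchors as deposited and -0.032 among bulk libraries with at least 100 HoxA read pairs. The HoxA to HoxC ratio turned to -0.18 with each loop counted once.

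Replicate numbers gave no sign of pairing the groups: same-numbered libraries correlated over 0.1 in 0 of 5 pairs, and 2 of 5 cluster2 libraries correlated best with their own number. Over genes, the chi-square per degree of freedom between libraries was 1.09 to 1.20 in cluster2 and 1.67 to 5.55 in bulk. Cluster2 libraries thus differed little beyond read sampling, and the check could not show whether the numbers pair. With the replicate block 11 loops were lower, as in replicates 1 to 5 without it, and the differences were 9.87 points for the inside, 6.85 for the Skap2-side and -1.49 for the anterior share, -140.2 kb for the span, and 2.58, 1.18 and 2.31 for the HoxA to HoxB, HoxC and HoxD ratios. An exact permutation test over 5 pairs cannot go below p = 0.0625.

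Leaving out 1 library at a time gave -1.27 to -1.04 for the HoxA cluster, 7 lower genes each time, 9 to 11 lower anchors and 14 to 17 lower loops, with 0 higher throughout. The differences ranged from 9.15 to 11.1 points for the inside, 9.90 to 11.8 for the Skap2-side and 0.23 to 1.90 for the anterior share, from -162.2 to -153.8 kb for the span, and from 2.46 to 2.63, 0.97 to 1.11 and 2.20 to 2.40 for the 3 ratios. Most HoxA loops rest on 1 read pair, and 33 of 839 could be tested.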
